A study of Mus musculus with 4 samples.

Results

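The BCL-2 family, the regulators of mitochondrial apoptosis, was examined in mouse T cells that lack or carry the microRNA miR-155. Its members were taken by symbol, and the scanner files held 10 of the 10 listed genes, of 27528 named genes in all, on 13 of 55681 non-control probes. The tested arrays came from miR-155-/- T cells (KO, 2 arrays) and the control arrays from miR-155+/+ T cells (WT, 2 arrays). Cells of both genotypes carried a red fluorescent reporter (RFP) for IL-17F, were stimulated through CD3e and CD28 in the presence of TGF-beta and IL-6, which direct T helper 17 (Th17) differentiation, and were sorted as CD4+ IL-17F RFP+. The series' design text calls the samples biological replicates. No label used here gives strain, age, sex or the way the miR-155 allele was made, nor ties an array to an animal or culture, so the spread behind each p-value is that between 2 arrays of a genotype and may be technical. The series' title names IL-23 responsiveness and effector gene expression as its subject, and the labels state no question about apoptosis.

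Proteins of this family decide whether the outer mitochondrial membrane is opened. BAX and BAK1 form the pores through which cytochrome c leaves the mitochondrion, and cytochrome c then activates the caspases. BCL-2, BCL-XL (gene Bcl2l1), MCL-1 and A1 (the Bcl2a1 genes) hold BAX and BAK1 in check and so keep the cell alive. The BH3-only proteins BIM (Bcl2l11), PUMA (Bbc3), NOXA (Pmaip1) and BID, named for the short homology region they share with the rest of the family, bind the pro-survival proteins or activate the pore formers. In T cells, cytokines such as IL-7 sustain BCL-2, stimulation through the antigen receptor induces A1 and BCL-XL, and BIM drives the loss of activated cells after an immune response.

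The agent that differs between the genotypes and the probes behind 2 of the results are shown first. RefSeq's table for GRCm38.p6 places the major mature strand of miR-155 on the plus strand at chr16:84714143-84714165, and its seed, bases 2 to 8, is in capitals. The Bcl2 probe is shown because Bcl2 had the lowest p-value of the 10 listed members. It lies on mm9 at chr1:108608970-108609029 on the minus strand, and its capitals mark codons at the end of the BH1 region, which the pro-survival proteins and pore formers share. The Bcl2l11 probe is shown because it reads the BH3 part of BIM itself. It lies on the plus strand at chr2:127972893-127983988 on mm9, a span of 11096 bases for a probe of 60 bases, so that it joins 2 stretches of the genome, and its capitals mark the codons of the glycine and aspartate at the core of BH3.
mmu-miR-155-5p: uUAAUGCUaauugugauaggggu
Bcl2 probe: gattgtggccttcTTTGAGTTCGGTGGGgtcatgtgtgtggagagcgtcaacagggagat
Bcl2l11 probe: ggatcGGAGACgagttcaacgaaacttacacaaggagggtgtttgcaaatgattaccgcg

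Values are log2 processed signals of 1-colour Agilent arrays minus each array's 75th percentile, so that 0 is the 75th percentile of all non-control probes. Signals of different probes are not set against each other, since probes differ in how well they hybridise. The small number of arrays limits the precision. All 13 probes were well above background on 4 of 4 arrays, each from 1 spot. Between 63.5% and 69.8% of non-control spots were well above background and 0 were saturated. All arrays lay on 1 slide. KO filled its row 2 and WT its row 1, and row and genotype cannot be told apart. KO replicate 1 was less even than the other arrays. The brightness surface that the scanner software fitted to it varied by 0.155 (SD), against 0.0496 to 0.0555, and had been divided out at 8.27% of its well-measured spots, against 100% on each other array. Markers of the labelled cell type were detected. Cd4 was at 5.02 and 5.29 in KO and at 5.35 and 5.29 in WT, Cd3e was at 5.91 and 6.14 in KO and at 6.04 and 6.13 in WT, and 12 of 12 CD4 T cell and Th17 markers were well above background on all arrays. Detection alone does not single out this cell type, since 8 of 8 macrophage and dendritic cell markers, 7 of 9 markers of CD8, NK or gamma-delta T cells and 6 of 8 B cell markers were so too. Il17f, whose reporter was the gate, was at 1.52 and 1.92 in KO and at 3.68 and 3.78 in WT. The part of this difference in the BCL-2 family values was not tested. The targeted microRNA itself was not analysed here.

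No member passed the test. limma with Benjamini-Hochberg adjustment over all 37221 tested probes called 0 of the 13 member probes at an adjusted p of 0.05, where it called 0% of all probes. At an unadjusted p under 0.05 there were also 0 of 13, where 10.1% of all probes had such a p, 6.79% higher and 3.32% lower in KO, and 10.2% of genes by their brightest probe. The lowest adjusted p among the members was 0.499, for Bcl2, and the lowest among all probes was 0.390. The KO arrays lay above both WT arrays for 3 of the 13 probes, against 26.2% of all probes, and below both for 1 of 13, against 19.8%, which makes 4 of 13 without overlap, against 46% of probes and 47.7% of genes. The difference was below 0 for 5 of 13 probes, against 44.8% of all probes. Counted by the brightest probe of each gene, 6 of 10 members had higher and 4 lower mean values in KO, where 47.9% of 19804 genes were lower, and their median difference was 0.10, against 0.014 over those genes. The members' shares were near or below those of all probes. An exact two-sided permutation test of 2 against 2 arrays cannot give a p below 0.333, so limma's values are used throughout.

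**Figure D1:**
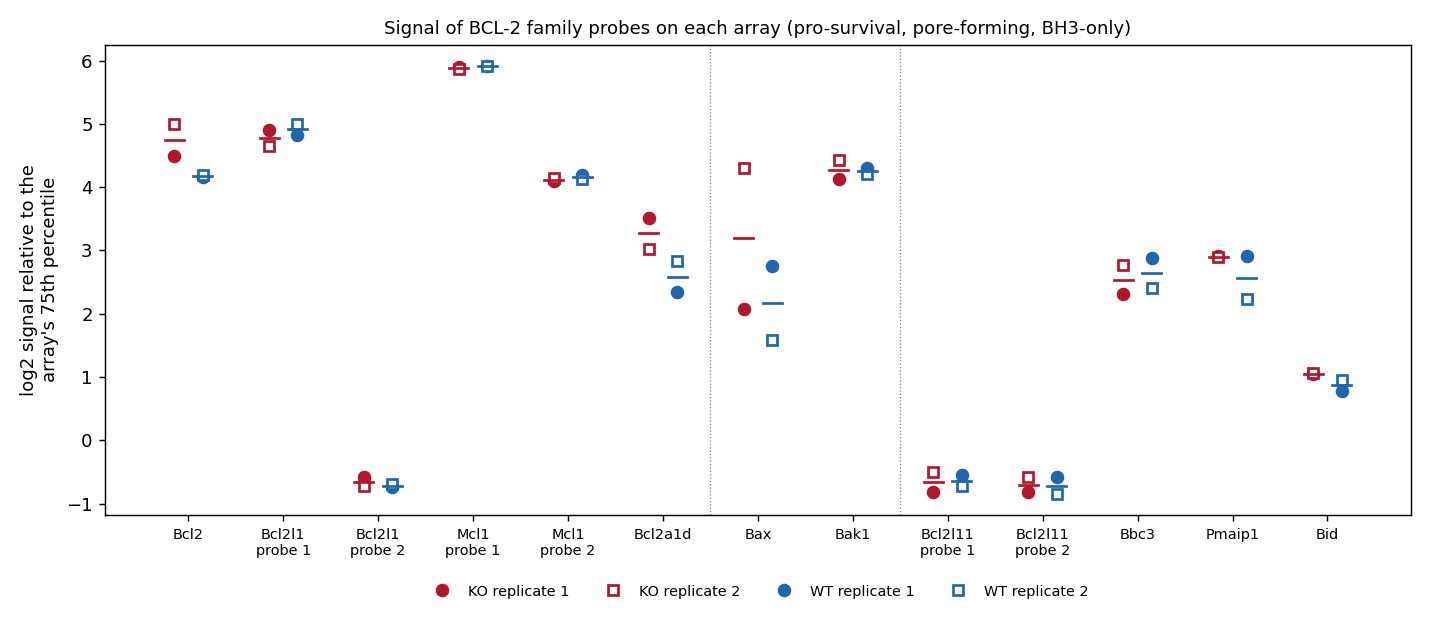
Normalised log2 signal (vertical axis, relative to the array's 75th percentile) of the 13 BCL-2 family probes on each array, with KO left of WT, filled circles for replicate 1, open squares for replicate 2 and a bar at each genotype's mean. Dotted lines part the pro-survival genes, the pore formers and the BH3-only genes. Both KO points of Bcl2 and of Bcl2a1d lie above both WT points, the Mcl1 points nearly coincide, and KO replicate 2 of Bax stands at 4.31, far from KO replicate 1 at 2.07.

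Among the pro-survival genes, Bcl2 and Bcl2a1d had the higher values in KO. Bcl2 encodes the founding member of the family, which IL-7 sustains in resting T cells. Bcl2 was at 4.49 and 5.0 in KO, against 4.15 and 4.19 in WT. Both KO arrays lay above both WT arrays, and the KO arrays differed more from each other (SD 0.36) than the WT arrays did (SD 0.03). The difference was 0.57 ± 0.22 (SE, n = 2 arrays per genotype), a 1.49-fold higher signal in KO, with a 95% interval of -0.02 to 1.16, an unadjusted p of 0.0544 and an adjusted p of 0.499 by limma. It was 0.32 without KO replicate 2 and 0.83 without KO replicate 1, and in both cases above 0.

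Bcl2a1d belongs to the A1 group, pro-survival genes that antigen receptor and NF-kappaB signals induce. Bcl2a1d was at 3.52 and 3.02 in KO, against 2.34 and 2.83 in WT. The groups did not overlap, and KO replicate 2 and WT replicate 2 were the nearest arrays between them. The difference was 0.68 ± 0.27 (SE), a 1.61-fold higher signal in KO, with an interval of -0.05 to 1.42, an unadjusted p of 0.0619 and an adjusted p of 0.506 by limma. The spot of this probe lay where the surface of KO replicate 1 was 1.19, and with the surface divided out on every array the difference was 0.54. Left-out arrays gave values of 0.43 to 0.93.

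The Bcl2a1d value cannot be given to 1 gene. The scanner files annotate its probe, at chr9:88618165-88618224 on the minus strand of mm9, to 3 RefSeq transcripts, which RefSeq's gene table assigns to 3 genes, Bcl2a1a, Bcl2a1b and Bcl2a1d. A further relative, Bcl2a1c, has a probe of its own. Bcl2a1c was at 0.05 and -0.61 in KO, against -0.98 and -0.72 in WT, a difference of 0.57 ± 0.27 (SE) with an unadjusted p of 0.105 and an adjusted p of 0.538 by limma. Both KO arrays were thus above both WT arrays for both A1 probes, where 26.2% of all probes were higher without overlap. How far each probe also binds transcripts of the other genes was not tested. The likeness of these genes extends to their promoters, shown here for the gene that names the first probe and for the gene of the second. The 250 bases before the RefSeq start on GRCm38.p6 are printed for Bcl2a1d (minus strand, chr9:88731851-88732100) and Bcl2a1c (plus strand, chr9:114329885-114330134), and the capitals mark their longest shared stretch within these bases, of 58. In Bcl2a1d it runs from base 193 to base 250, the end of the printed window, and in Bcl2a1c from base 83 to base 140. The stretch thus lies at unlike distances from the RefSeq starts of these genes. Over the 300-base windows of the RefSeq table, which go on past the start, the longest shared stretch is 108 bases.
Bcl2a1d upstream: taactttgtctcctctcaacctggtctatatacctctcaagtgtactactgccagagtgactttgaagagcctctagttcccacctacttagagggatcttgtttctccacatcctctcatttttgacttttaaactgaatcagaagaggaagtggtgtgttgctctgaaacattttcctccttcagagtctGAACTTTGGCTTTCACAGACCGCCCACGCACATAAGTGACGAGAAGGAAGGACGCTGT
Bcl2a1c upstream: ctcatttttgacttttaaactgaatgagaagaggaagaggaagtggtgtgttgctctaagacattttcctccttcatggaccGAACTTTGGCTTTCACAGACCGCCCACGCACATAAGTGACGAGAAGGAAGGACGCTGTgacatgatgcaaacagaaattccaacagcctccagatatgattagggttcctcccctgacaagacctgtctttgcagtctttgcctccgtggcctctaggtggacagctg

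Mcl1, whose short-lived protein is needed by T cells at every stage, had the steadiest signal of the family. Its brighter probe was at 5.89 and 5.86 in KO, against 5.91 and 5.91 in WT, and its other probe at 4.09 and 4.15 in KO, against 4.19 and 4.12 in WT. Both probes gave a difference of -0.04, with SE of 0.12 and 0.13 and adjusted p-values of 0.922 and 0.923 by limma. The brighter probe accounts for the single case in which both KO arrays lay below both WT arrays. Its 95% interval ran from -0.38 to 0.30. The probes lie on the plus strand of mm9 at chr3:95466855-95466914 and chr3:95465543-95465602.

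Bcl2l1 encodes BCL-XL, which activated T cells induce through CD28. Its brighter probe, at chr2:152606404-152606463 on the minus strand of mm9, was at 4.91 and 4.64 in KO, against 4.83 and 5.0 in WT. Its other probe, at chr2:152655185-152655244, was at -0.58 and -0.73 in KO, against -0.74 and -0.68 in WT. The KO and WT arrays overlapped on both probes, and the probes differed in sign, with differences of -0.14 ± 0.17 and 0.06 ± 0.14 (SE) and adjusted p-values of 0.763 and 0.874 by limma. The intervals were -0.59 to 0.31 and -0.31 to 0.43.

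The pore formers behaved unlike each other in their spread. Bak1 was at 4.12 and 4.43 in KO, against 4.30 and 4.21 in WT, a difference of 0.02 ± 0.17 (SE, adjusted p of 0.970 by limma), and the arrays of the genotypes overlapped. Bax was at 2.07 and 4.31 in KO, against 2.76 and 1.59 in WT. KO replicate 2 was the highest array and WT replicate 2 the lowest, while KO replicate 1 lay between the WT arrays. On the linear scale these were processed signals of 1878 and 9442 in KO and of 3835 and 1842 in WT, before the shift by the 75th percentile. The difference of 1.02 ± 0.88 (SE) was the largest of the family and had an interval of -1.38 to 3.41 and an adjusted p of 0.675 by limma. It rested on KO replicate 2, without which it was -0.10, and was 2.13 without KO replicate 1. The Bax probe lies at chr7:52717122-52717181 and the Bak1 probe at chr17:27156807-27156866, both on the minus strand of mm9.

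**Figure D2:**
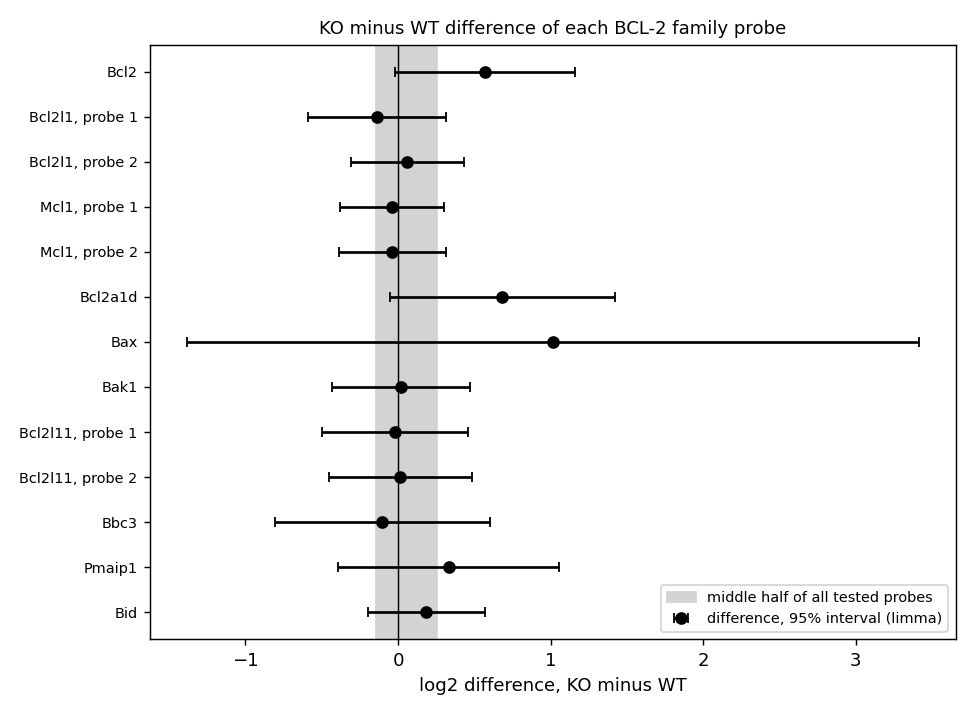
KO minus WT difference in log2 units (horizontal axis) for each BCL-2 family probe, with limma's 95% interval. The grey band spans the quartiles of all 37221 tested probes, from -0.14 to 0.25, and 13 of 13 intervals include 0.

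The spread of Bax between replicate arrays was rare for the array as a whole. Pooled over genotypes, its SD was 1.26 log2 units, against a median of 0.170 over all tested probes, and 1.32% of all tested probes had a larger one. Among the 3722 probes of like brightness it stood at the 99.0th percentile. The spot was not flagged as an outlier on any array. At the other end the brighter Mcl1 probe had an SD of 0.0157, which placed it at the 0.876th percentile of all probes, and the second Mcl1 probe was at the 6.28th. Bcl2a1d, Pmaip1, Bbc3 and Bcl2, with SDs of 0.347, 0.340, 0.328 and 0.256, stood at the 95.3rd, 95th, 94.7th and 94.0th percentiles of probes of like brightness, so these bright genes varied more between replicates than most.

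**Figure D3:**
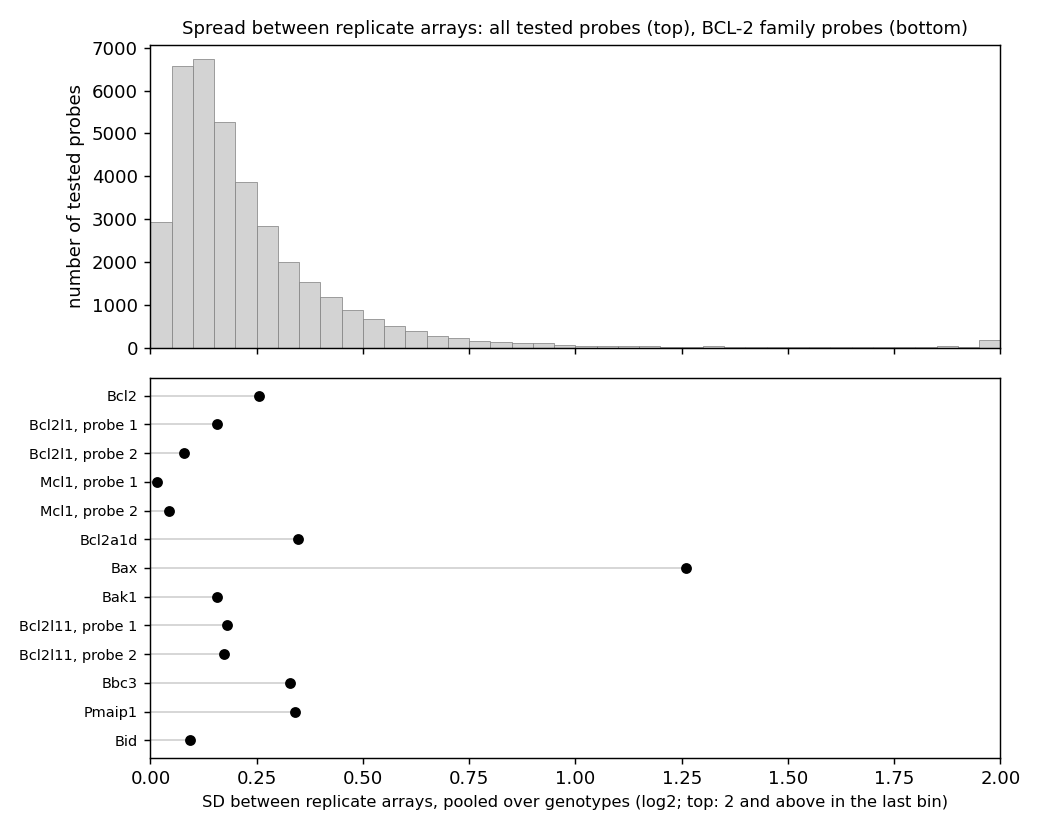
Top, number of tested probes (vertical axis) by SD between replicate arrays, pooled over genotypes, in log2 units (horizontal axis), with SDs of 2 and above in the last bin. Bottom, the SD of each BCL-2 family probe on the same axis, where Bax at 1.26 stands apart from the other 12 probes, which lie between 0.0157 and 0.347.

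The BH3-only genes had small differences of either sign. Bcl2l11, the gene of BIM, was measured by 2 probes with nearly the same result. The BH3 probe printed above was at -0.81 and -0.50 in KO, against -0.55 and -0.73 in WT. The other probe, at chr2:127954736-127955417 on the plus strand of mm9 and annotated to no RefSeq transcript, was at -0.81 and -0.58 in KO, against -0.58 and -0.84 in WT. The arrays of the genotypes overlapped on both probes. The differences were -0.02 ± 0.18 and 0.02 ± 0.17 (SE), with adjusted p-values of 0.974 and 0.978 by limma. The BH3 probe was the 1 member probe in the corner blocks of the array that an alternative left out, and the second probe lay outside them.

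Bbc3, the gene of PUMA, a p53 target, was at 2.31 and 2.76 in KO, against 2.88 and 2.40 in WT, a difference of -0.10 ± 0.26 (SE, adjusted p of 0.893 by limma). Pmaip1, the gene of NOXA, which binds MCL-1 and A1, was at 2.91 and 2.89 in KO, against 2.91 and 2.23 in WT. WT replicate 2 alone was low for Pmaip1, and the difference of 0.33 ± 0.27 (SE, adjusted p of 0.652 by limma) was -0.0076 without that array. Bid, whose protein links death receptors to the mitochondrion once caspase-8 has cut it, was at 1.05 and 1.06 in KO, against 0.77 and 0.96 in WT. Bid was the third probe whose KO arrays lay above both WT arrays, with a difference of 0.19 ± 0.14 (SE), an interval of -0.20 to 0.57 and an adjusted p of 0.637 by limma. The Bbc3 probe lies at chr7:16903403-16903462 on the plus strand and the Bid probe at chr6:120843464-120843523 on the minus strand of mm9. Exons and UTRs of mm9 were not analysed here.

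Since family members bind each other, the ratios of partners within an array are a second view of the same values, which no shift of a whole array can move. The pairs were chosen after the values above were seen, and the ratios are given without a test, each relative to its WT mean and from the brightest probe of each gene. The log2 ratio of Bcl2 to Bcl2l11 was at 0.49 and 0.69 in KO, against -0.11 and 0.11 in WT. That of Mcl1 to Bcl2l11 was at 0.15 and -0.19 in KO, against -0.09 and 0.09 in WT, and that of Bcl2l1 to Bcl2l11 at 0.17 and -0.41 in KO, against -0.18 and 0.18 in WT. Of these 3 ratios to Bcl2l11, that of Bcl2 alone separated the genotypes.

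Bcl2a1d to Bcl2l11 was at 1.11 and 0.30 in KO, against -0.33 and 0.33 in WT, and so overlapped. Within the pro-survival genes, the ratio of Bcl2 to Bcl2l1 was at 0.32 and 1.1 in KO, against 0.07 and -0.07 in WT, and that of Bcl2 to Mcl1 at 0.34 and 0.88 in KO, against -0.02 and 0.02 in WT. Both ratios were higher on both KO arrays than on both WT arrays. The ratio of Mcl1 to its partner Pmaip1 was at -0.36 and -0.38 in KO, against -0.34 and 0.34 in WT, so both KO arrays lay below both WT arrays, while the WT arrays lay far apart (SD 0.48). That of Bcl2a1d to Pmaip1 was at 0.59 and 0.11 in KO, against -0.58 and 0.58 in WT, and overlapped. Of the 8 ratios computed, 3 were higher and 1 lower without overlap, where 26.2% of all single probes were higher and 19.8% lower without overlap. All 3 higher ratios are ratios of Bcl2 to another gene, so they carry the Bcl2 difference given above. No such share was computed for ratios of other genes. A mean over bulk cells cannot tell more cells that express a gene from more RNA per cell.

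The other genes of the family gave a like picture. Of 16 further BCL-2 family genes listed, 14 were found by symbol and 13 were tested, of which 8 had higher and 5 lower values in KO, with a median of 0.082. Over all genes 0 passed the adjusted threshold, and 1, Bok, was by its brightest probe higher at an unadjusted p under 0.05, where 6.6% of all genes were higher and 3.59% lower at that p. Bok, a BAX-like protein of the endoplasmic reticulum and mitochondria, was at -1.78 and -1.80 in KO, against -2.16 and -2.47 in WT, a difference of 0.52 ± 0.16 (SE) with an unadjusted p of 0.0313 and an adjusted p of 0.466 by limma. Bcl2l2, the gene of pro-survival BCL-W, differed by -0.11 on its brighter probe, which the counts use. Its other tested probe, dim and well above background on 1 of 2 KO and 2 of 2 WT arrays, differed by -0.66 ± 0.21 (SE), with an unadjusted p of 0.0324 and an adjusted p of 0.469 by limma. Among the remaining BH3-only genes, Bad differed by -0.05, Bik by 0.0074, Bmf by 0.16 and Hrk, a dim gene, by 0.69 ± 0.67 (SE).

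Downstream of the pore, 2 of 11 genes of the apoptosome, the caspases and the released mitochondrial factors had an unadjusted p under 0.05, both higher in KO, where 6.6% of all genes were higher and 3.59% lower at that p, and 0 passed over all genes. Casp6, an effector caspase that is bright in these cells, was at 5.64 and 5.33 in KO, against 4.99 and 4.95 in WT, a difference of 0.52 ± 0.16 (SE). Its adjusted p was 0.467 by limma, and the list's median was 0.037. Among 8 inhibitor of apoptosis genes, Birc3, which encodes cIAP2, was the 1 with such a p, against the same shares of all genes, at 0.48 ± 0.17 (SE, adjusted p of 0.484), and the median was -0.034.

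The 10 death receptor genes had a median of -0.013. None, 0 of 10, passed over all genes, and an unadjusted p under 0.05 was reached by 1 higher and 1 lower gene, against 6.6% and 3.59% of all genes. Tnfsf10, the gene of the death ligand TRAIL, was at 0.72 and 0.43 in KO, against -0.46 and -0.82 in WT, a difference of 1.21 ± 0.20 (SE) and a 2.32-fold higher signal, with an adjusted p of 0.396 by limma. With a trended and robust prior it passed, at an adjusted p of 0.0476. Fas, the receptor through which activated T cells are killed, was at 3.23 and 3.26 in KO, against 3.72 and 3.63 in WT, a difference of -0.43 ± 0.13 (SE, adjusted p of 0.456). Of 14 tested genes of the list of p53 and its targets, which contains Bbc3, Pmaip1 and Bax, 0 had an unadjusted p under 0.05 and the median was -0.060. Mdm2, the ubiquitin ligase that restrains p53, differed by -0.55 ± 0.32 (SE), and Aen, a nuclease induced by p53, by -0.20 ± 0.13 (SE).

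Upstream, the 16 genes of survival cytokine signalling had 12 higher and 4 lower values in KO and a median of 0.068. Over all genes 0 passed, and an unadjusted p under 0.05 was reached by 3 higher genes and 1 lower gene, against 6.6% and 3.59% of all genes. Il7r, the receptor chain for IL-7, was at 5.51 and 5.53 in KO, against 5.02 and 5.03 in WT, a difference of 0.49 ± 0.12 (SE) and an adjusted p of 0.425 by limma. Pim1 and Pim2, kinases that STAT factors induce and that phosphorylate BAD, differed by 0.53 ± 0.14 and 1.30 ± 0.36 (SE), with adjusted p-values of 0.437 and 0.441. Pim2 was at 3.02 and 3.46 in KO, against 2.37 and 1.5 in WT. Il6ra, the receptor chain for the IL-6 present in the culture, differed by -0.40 ± 0.14 (SE, adjusted p of 0.484). KO and WT arrays did not overlap for 7 higher and 2 lower genes of the 16, against 25.2% and 22.5% of all genes.

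Markers of other cells are given beside these values. Among markers of NK, CD8 and gamma-delta T cells, 3 of 7 tested genes were higher at an unadjusted p under 0.05, against 6.6% of all genes. The other 4 had lower values in KO, and the list's median was -0.081. Klrd1 differed by -0.47, Cd8b1 and Klrk1 by -0.13 each, and Sox13 by -0.08. Of the higher genes, Cd8a, which is dim, was at -2.65 and -2.37 in KO, against -3.89 and -3.73 in WT. Eomes differed by 1.05 ± 0.30 and Fcer1g by 0.94 ± 0.21 (SE), with adjusted p-values of 0.447 and 0.422 by limma, and Ncr1 was not well above background on any array. The summed signal of the list's 9 genes, in multiples of the array's 75th percentile, was 13.5 and 16.9 in KO, against 17.2 and 20.7 in WT. Most of it came from Klrd1, whose mean log2 level was 3.81. B cell markers summed to 4.50 and 4.95 in KO, against 4.04 and 3.07 in WT. The largest part came from Cd79b, at 1.62 and 1.82 in KO, against 0.88 and 0.24 in WT. At that p, 1 of 7 tested genes was higher and 2 were lower, against 6.6% and 3.59% of all genes. The higher gene was Cd79b, and the lower ones were Ebf1 and Cd22, which differed by -0.97 and -0.60. The spots of Cd79b and Cd22 lay in the corner blocks of the array. Macrophage and dendritic cell markers summed to 99.6 and 110.0 in KO, against 104.7 and 99.9 in WT, most of it from H2-Ab1, whose mean log2 level was 6.41. Of the 8 genes, 7 had higher and 1 lower values in KO, where 47.9% of all genes were lower, and the median difference was 0.25. Without overlap, 3 were higher and 1 lower, against 25.2% and 22.5% of all genes. Neutrophil, mast cell and erythroid markers summed to 1.38 and 1.18 in KO, against 1.32 and 1.39 in WT. By their brightest probes, 0 genes of these last 2 lists had an unadjusted p under 0.05. A dimmer probe of the macrophage marker Cd68 did fall below that limit, at 0.0233 by limma (0.447 after adjustment). Its signal was 0.73 higher in KO, against 0.30 for the brighter Cd68 probe. The part of other cells in the BCL-2 family values was not tested.

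How each array was scaled set the sign of several members. With arrays shifted by their median in place of the 75th percentile, the median over all genes became -0.15, and every member moved down by the same amount. Bcl2 was then at 0.41, Bcl2a1d at 0.52 and Bid at 0.026, while Bak1, the second Bcl2l1 probe and the second Bcl2l11 probe turned below 0, at -0.14, -0.10 and -0.14, all close to the median of all genes under that scaling. Bcl2 and Bcl2a1d kept a positive difference under each of the 15 alternatives run on them, Bcl2 between 0.32 and 0.83 and Bcl2a1d between 0.43 and 0.93. Their lowest adjusted p-values over these were 0.165 and 0.174, both with normexp background correction.

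**Figure D4:**
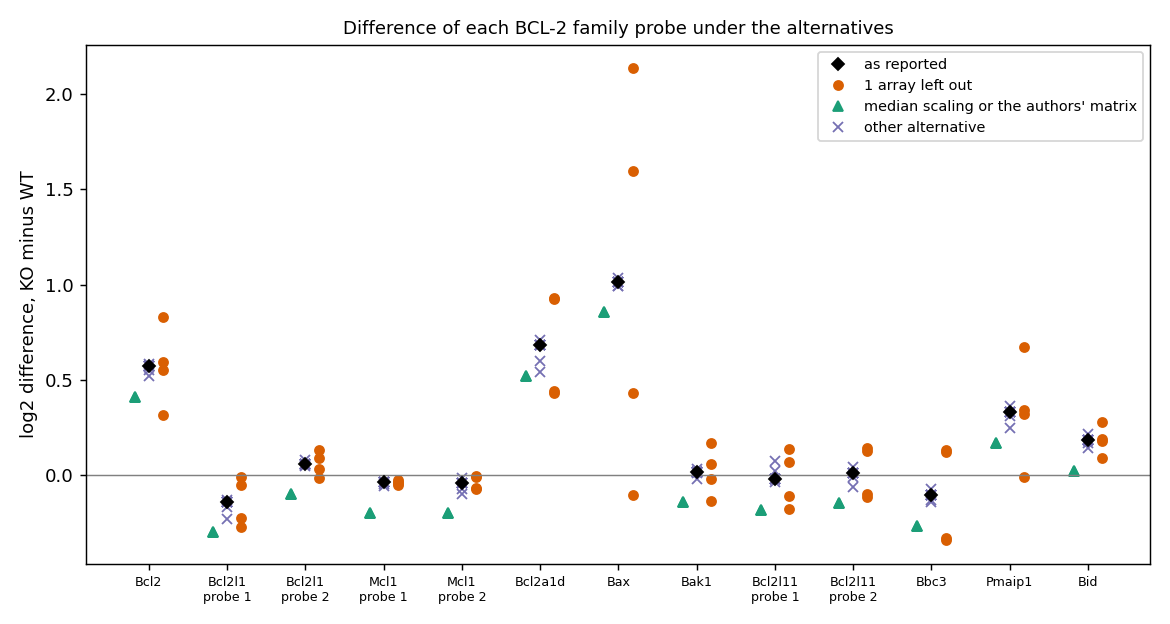
KO minus WT difference in log2 units (vertical axis) of each BCL-2 family probe as reported (black diamonds), with 1 array left out (orange circles), with median scaling or the authors' matrix (green triangles) and under the other alternatives (crosses). Bcl2 and Bcl2a1d stay above 0 throughout, Bax ranges from -0.10 to 2.13 as arrays are left out, and the green triangles lie a constant distance below the diamonds.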

How the data were processed

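Each array's scanner file came from Agilent Feature Extraction, version 10.5.1.1, per the submitters' processing notes. Its processed signal, per the file headers, is a linear intensity; it equals the background-subtracted signal divided by a fitted surface, a ratio given per spot by the authors' deposited files, on 3 arrays and at 8.27% of well-measured spots of KO replicate 1. A deposited table holds log2 values whose making is not given in the sources used here. Its columns equal the log2 processed signal less 1 constant per array, within 0.01 for 99.7% to 99.8% of probes, with a median of 5.54 each, and it served as an alternative.

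Control spots and outlier flags were left out, spots of 1 probe averaged, and each array shifted by its 75th percentile. The filter kept the 37221 probes that both arrays of either genotype measured well above background, and these were fitted with limma 3.58.1 (R 4.3.3; lmFit, eBayes), with Benjamini-Hochberg adjustment over all of them and a threshold of 0.05. There were 2 residual and 2.19 prior degrees of freedom, and the method was tested on simulated data. Gene lists use the brightest tested probe of each gene, with names as in the files. Every member probe is named, and from each list the genes at an unadjusted p under 0.05, or else the 2 with the smallest p, plus named relatives of the members. One gene that this rule names is not reported here. The members and lists were chosen with earlier results of these data known. The list of other BCL-2 genes lacked Bcl2a1a and Bcl2a1b, which have no probe under their own symbol. No label used here pairs the samples by replicate number. Deviations of same-numbered arrays from their group means correlated at r = -0.0037 over 37196 probes. That value shows no shared deviation across probes and cannot tell whether same-numbered samples shared a culture or day. Alternatives covered scaling, background correction, filters, detrending, the prior, probe choice, a replicate block and each array left out. Correction with the surface was applied to spots whose signal was not a surrogate for a dim spot. Alternatives in background correction used normexp with an offset of 50.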

Additional observations from a re-analysis of the deposited data

How the results depend on the processing

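No member probe passed the adjusted threshold under any alternative run, and 22 of 191 member values changed sign, none of them for Bcl2, Bcl2a1d, Bid, both Mcl1 probes and the brighter Bcl2l1 probe. As reported, 0 probes were called, 3766 had an unadjusted p under 0.05 (2529 higher and 1237 lower in KO), and these held 0 member probes and 10 genes of the pathway lists, called list genes here; 5 of 13 member probes were below 0. Median scaling gave 1292 higher and 3398 lower probes and the authors' matrix 1292 and 3397, each with 8 member probes below 0, 5 list genes, Bak1 at -0.14, the second Bcl2l11 probe at -0.14 and the second Bcl2l1 probe at -0.10. Quantile normalization gave 2064 lower probes, 1 member probe (Bcl2) and the second Bcl2l11 probe at -0.0063. Normexp gave 9178 probes, 7466 of them higher, 2 member probes (Bcl2 and Bcl2a1d), 16 list genes, the BH3 probe of Bcl2l11 at 0.075 and Bak1 at -0.017. The surface applied on every array gave Bcl2l11 at 0.025 and -0.061 on its probes. No filter left 4 list genes, and probes well above background on all 4 arrays held 1 member probe (Bcl2). Without the corner blocks, Bcl2 had an unadjusted p of 0.0470 by limma (0.451 after adjustment). A trended and robust prior called 108 probes and 1 list gene, with 2 member probes at an unadjusted p under 0.05. One probe per gene gave 2243 probes (1420 higher, 823 lower), and gene means gave 2193 (1424 higher, 769 lower).

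With the replicate number as a block, which is also the slide column, 0 probes were called, 2835 had an unadjusted p under 0.05 (2021 higher and 814 lower in KO) and 4 list genes did. Leaving out 1 array at a time called 0 to 53 probes, the 53 without WT replicate 1, and gave 2351 to 3932 probes at that p, of which 1736 to 3331 were higher and 601 to 1739 lower. It gave 1 to 2 member probes and 3 to 8 list genes at that p and 3 to 8 member probes below 0. Differences ranged from -0.34 to 0.14 for Bbc3, from -0.17 to 0.14 and from -0.11 to 0.14 for the probes of Bcl2l11, from -0.011 to 0.14 for the second Bcl2l1 probe, from -0.13 to 0.17 for Bak1, from -0.10 to 2.13 for Bax and from -0.0076 to 0.67 for Pmaip1. The lone array left in a genotype was assumed to vary like the other. The cause of these changes was not tested. All 13 member probes were well above background on all 4 arrays.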
